A study of Solanum lycopersicum with 12 samples.

Results

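Unstressed plants of PI365967 were compared with unstressed plants of Moneymaker, over 6 of the 12 arrays of a study of salt response in tomato. The members were the arrays labelled as unstressed, 3 per genotype. Moneymaker is a cultivar of tomato, and PI365967 is an accession known as a wild, salt-tolerant tomato of the species Solanum pimpinellifolium, although the labels give Solanum lycopersicum for every sample. Plants with 6 true leaves stood for 5 h in fresh quarter-strength Hoagland nutrient solution with 0 mM NaCl, after acclimation to aerated hydroponic tanks. The other 6 arrays held plants of the same genotypes and age, 3 arrays each, after 5 h in the same solution with 200 mM NaCl. Each array took the pooled RNA of 3 whole plants, roots and shoots together, so the replicates were separate pools of plants and an array shows no plant-to-plant variation. The comparison asks how far the 2 genotypes already differed before any salt was given.

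Wild tomatoes of this kind separated from the cultivated tomato only recently, and their genes are mostly very similar in sequence, yet accessions differ in gene copies, in promoters and in constitutive expression of defence and stress genes. Plants meet salt with osmolytes, ion transporters, scavengers of active oxygen, protein chaperones and the hormone abscisic acid. A short-oligonucleotide array of this type reads each transcript through several short probes, here made from cultivated tomato sequence. A base difference under a probe lowers the signal without any change in RNA, and a lower signal in PI365967 cannot be told apart here from less RNA. In whole plants, fewer cells of a type and less RNA per cell cannot be told apart either.

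The deposited values are linear intensities, 1 per probe set (the probes for 1 transcript) and array. They are given below as levels, log2(intensity + 16) after quantile normalization. A difference is always PI365967 minus Moneymaker on that log2 scale, between means of 3 arrays per genotype, with its standard error (SE). A probe set was called at an adjusted p under 0.05 over 10101 probe sets in limma, a linear model fitted across all of them. The SE uses that model's variance for the probe set, which is pooled over unstressed and salt-treated arrays. It is not the scatter of the 6 unstressed arrays alone. Folds are on the same scale, so they understate differences of dim probe sets. A background line of 5.39 was taken from 17 control probe sets with no tomato target. It corresponds to an intensity of 25.9, and 1024 probe sets lay at or below it in all 6 unstressed arrays. The annotation names genes for 702 probe sets, 207 carry a locus number alone and 9192 have no symbol.

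Replicates were close and the genotypes stood apart. Over all probe sets, Pearson's r between replicates was 0.991 to 0.994 in Moneymaker and 0.993 to 0.995 in PI365967, and 0.955 to 0.961 between arrays of different genotypes, and the first principal component of the 6 arrays, with 80.8% of the variance, separated the genotypes. Among the array's control transcripts, 11 probe sets for actin, GAPDH and elongation factor 1a differed by −0.12 to 0.13. GAPDH 3′ minus 5′ signal, a sign of RNA integrity, was −0.06 to 0.11 in Moneymaker and 0.03 to 0.06 in PI365967. The ubiquitin control gave −0.79 at its 3′ probe set and −0.17 and −0.15 at the other 2, so probe sets of 1 transcript can disagree between these genotypes. Both leaf and root transcripts were present: none of 8 photosynthesis and none of 11 root-leaning probe sets lay at background. Summed intensity of the photosynthesis list was 65547 to 74812 in Moneymaker (median 70705) and 78424 to 80234 in PI365967 (median 80080). That of the root-leaning list was 25570 to 26521 (median 25723) and 23406 to 24326 (median 24260). The groups did not overlap in either sum, and their part in the results that follow was not tested.

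Of the 10101 probe sets, 3718 (36.8%) were called, 1935 (19.2%) higher and 1783 (17.7%) lower in PI365967. Of the 702 probe sets with a gene name, 43.4% were called, 21.4% higher and 22.1% lower. The counts of the gene lists below are to be read beside these shares. The median difference over all probe sets was 0.02, a value that quantile normalization draws towards 0. Small differences were about balanced on this scale, in part because of that step. Without normalization between arrays the median was −0.22 and 18.7% of the calls were higher. Large differences were not balanced. At least 2-fold differences were called for 272 higher (2.69%) and 374 lower (3.7%) probe sets, at least 4-fold differences for 49 and 114, and at least 16-fold differences for 7 and 27. Lower probe sets made up 69.9% of the calls of at least 4-fold. All 3 PI365967 arrays lay above all 3 Moneymaker arrays for 2659 probe sets (26.3%) and below them for 2410 (23.9%).

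**Figure D1:**
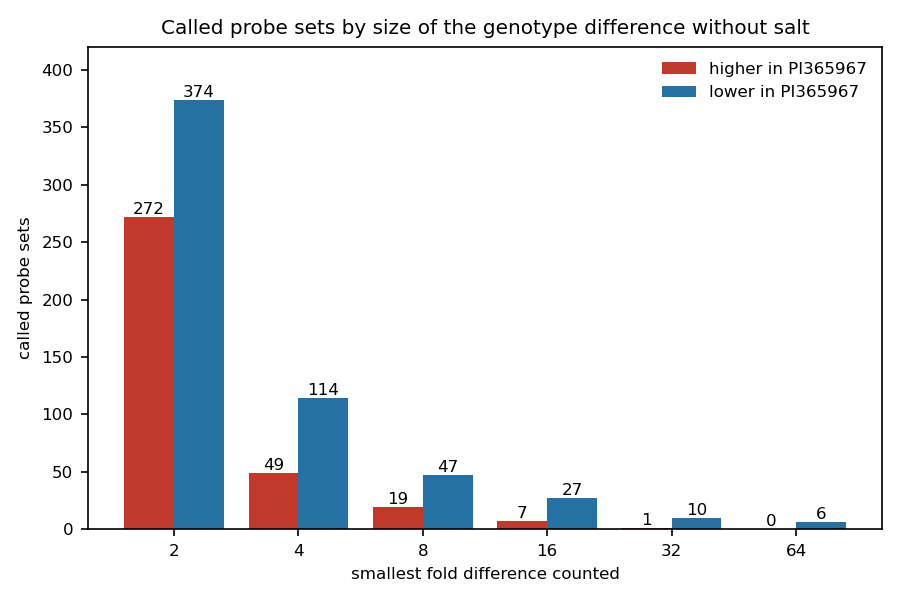
Number of called probe sets (y axis) whose difference between unstressed PI365967 and unstressed Moneymaker is at least the fold on the x axis, for higher (red) and lower (blue) signal in PI365967. Lower probe sets outnumber higher ones at every size shown, from 374 against 272 at 2-fold to 6 against 0 at 64-fold.

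Signal at or below background in 1 genotype alone was also more frequent in PI365967. The 3 PI365967 arrays were at or below the line and the 3 Moneymaker arrays above it for 56 probe sets, all called, and for 24 of these the Moneymaker mean was at least 4-fold above the line. Of those 24, 20 were at background in all 3 salt-treated PI365967 arrays too. The reverse held for 36 probe sets, 31 of them called, with 6 at least 4-fold above the line, of which 4 were also at background in the 3 salt-treated Moneymaker arrays.

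**Figure D2:**
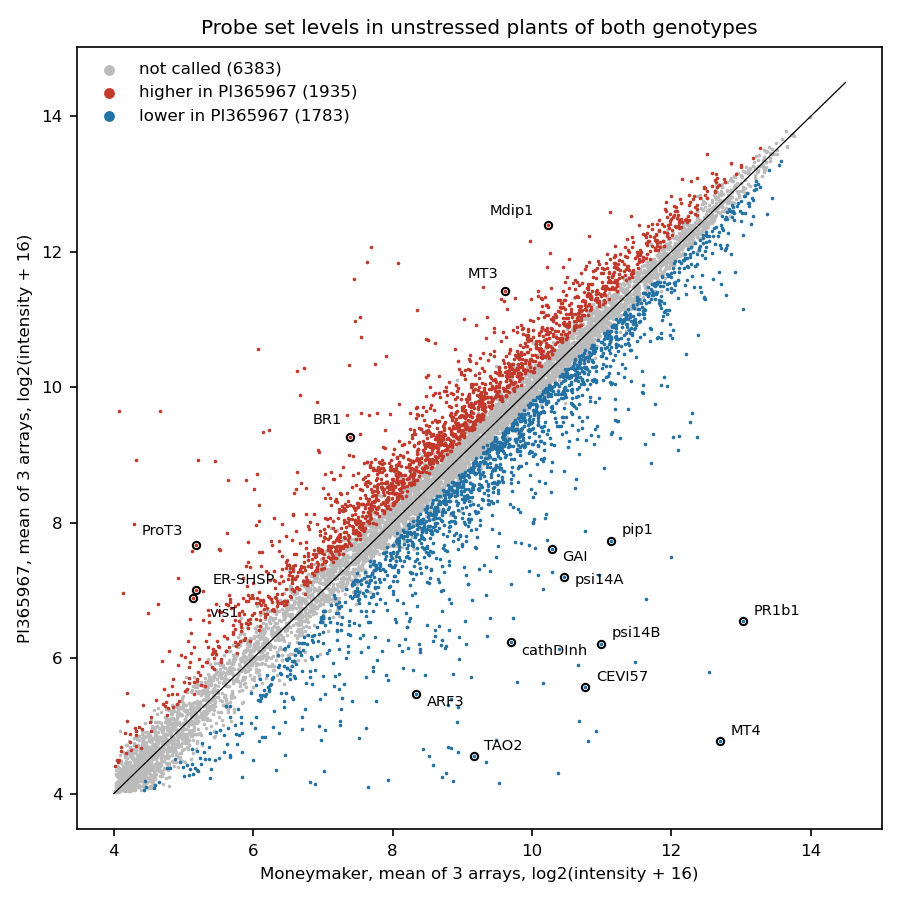
Mean level of each probe set in unstressed Moneymaker (x axis) and unstressed PI365967 (y axis), both log2(intensity + 16) over 3 arrays; grey points are the 6383 not called, red 1935 higher and blue 1783 lower in PI365967, and the line marks equal levels. Circled genes are named in the text, with MT4 at 12.70 in Moneymaker and 4.77 in PI365967 and Mdip1 at 10.23 and 12.39.

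Defence genes were among those with the lowest relative signal in PI365967. Pathogenesis-related (PR) proteins are secreted enzymes and antimicrobial proteins that plants make on infection. Of 12 probe sets of this list, 9 were lower, 1 was higher and 2 were not called, with a median of −0.87 against 0.02 over all probe sets, where 17.7% were lower. PR1b1, a PR-1 protein gene, had levels of 13.07, 13.20 and 12.84 in Moneymaker and 6.51, 7.70 and 5.44 in PI365967. Its PI365967 arrays were far below those of Moneymaker but also spread over more than 2 log2 units, and the difference was 89.4-fold (log2 −6.48 ± 0.51, adjusted p = 2.97e-06). The other PR1b1 probe set lay at background in both genotypes and gave −0.24, which was not called. PR-5, a thaumatin-like protein gene, stood at 8.68, 8.32 and 8.16 against 5.93, 6.93 and 5.77 (−2.17 ± 0.34, adjusted p = 0.000548). The chitinase gene CHI14 stood at 8.79, 8.91 and 8.41 against 7.11, 7.14 and 6.74 (−1.71 ± 0.14), and PR-P2, a PR-4 type protein gene, at 11.42, 11.32 and 10.82 against 9.25, 9.97 and 9.34 (−1.66 ± 0.28). In all 3 the arrays of the genotypes did not overlap. In the authors' second set of log2 values CHI14 differed by −0.53. The 1 higher member was TSI-1 (0.83), singled out after its value was seen. Without normalization between arrays 7 of the 12 were lower and none higher, and with median centring 7 were lower.

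The subtilases, a family of secreted serine proteases of which P69B is known from infected tomato, had 4 of 6 lower and none higher (median −0.70). The share lower over all probe sets was 17.7%. This list was not among those planned and was formed with earlier results of these data known, so its counts describe its members alone. P69B was at 11.10, 10.82 and 10.44 in Moneymaker and 9.63, 9.94 and 9.08 in PI365967, a difference of −1.23 ± 0.32 (−1.86 in the authors' second log2 values). SBT2 gave −0.67 ± 0.11. P69A gave −0.74 ± 0.19 but 0.17, not called, in the second values. SBT1 gave −0.77, and leaving out any 1 of 4 arrays ended its call (−0.76 to −0.69).

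CEVI57, a gene named for induction by citrus exocortis viroid, had levels of 10.87, 10.83 and 10.60 in Moneymaker and 5.49, 5.52 and 5.68 in PI365967, just above the background line. This was a 36.8-fold lower signal (−5.20 ± 0.28, adjusted p = 1.15e-07). The gene cathDInh, a cathepsin D inhibitor of the kind that plants make against feeding insects, stood at 9.02, 10.04 and 10.04 against 6.01, 6.09 and 6.60 (−3.47 ± 0.39). In the authors' second log2 values cathDInh gave −0.42, which was not called. Among recognition genes, the list of 6 had 1 higher and 1 lower: Asc-1, a gene of resistance to a fungal toxin, gave 0.49, which was not called without normalization between arrays (0.15), and the kinase gene PTI1 gave −0.29, a call that ended without any 1 of 4 arrays (−0.30 to −0.25).

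Wound and jasmonate genes, to which CEVI57 and cathDInh were assigned, differed in both directions, with 10 higher and 10 lower of 28 probe sets (median −0.08). Jasmonate is made from fatty acids by lipoxygenases and later enzymes and switches on defence against feeding. LOX1.1, a lipoxygenase gene, was higher in PI365967, at 11.31, 11.42 and 11.54 against 10.09, 10.17 and 10.00 in Moneymaker (1.34 ± 0.12, adjusted p = 9.23e-06). TD2, a threonine deaminase that acts in the insect gut, was at 12.42, 12.60 and 12.75 against 10.55, 10.78 and 12.02 (1.47 ± 0.31). Here 1 Moneymaker array lay more than 1 log2 unit above the other two, and still below all PI365967 arrays. Wiv-1, assigned to wounding and to sugar metabolism, was lower, at 9.07, 9.54 and 9.07 against 10.91, 10.96 and 10.48 (−1.56 ± 0.19). Without normalization the 10 lower calls of the list stood beside 4 higher ones.

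Most probe sets of the phosphate starvation list were lower. This list, like that of the subtilases, was not among those planned and was formed with earlier results of these data known. Its counts therefore describe its members alone. Plants short of phosphate make phosphatases, ribonucleases and phosphate transporters that free and take up phosphorus. Of 10 probe sets for 8 genes, 8 were lower, none was higher and 2 were not called, with a median of −1.18. The 8 lower ones include all 3 probe sets of 1 gene, psi14B, and that of the related psi14A. Among all probe sets 17.7% were lower and 19.2% higher. The probe set of psi14A, named for its induction by phosphate starvation, had levels of 10.40, 10.47 and 10.52 in Moneymaker and 7.37, 7.44 and 6.76 in PI365967 (9.67-fold lower, −3.27 ± 0.25, adjusted p = 2.21e-06). The related psi14B had 3 probe sets, and the one with the largest difference stood at 10.93, 11.00 and 11.05 against 6.28, 6.26 and 6.10 (−4.78 ± 0.21). Its other 2 probe sets, which can take signal from related transcripts, gave −1.73 and −1.65, so the direction was shared and the size was not. RNase LX (rnalx), a ribonuclease known from phosphate-starved tomato cells, stood at 11.25, 11.16 and 11.02 against 9.26, 9.76 and 9.00 (−1.80 ± 0.19). TPSI1 gave −0.43, not called with median centring (−0.23) or without normalization (−0.53). With median centring 5 of the 10 were lower, and without normalization 6.

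**Figure D3:**
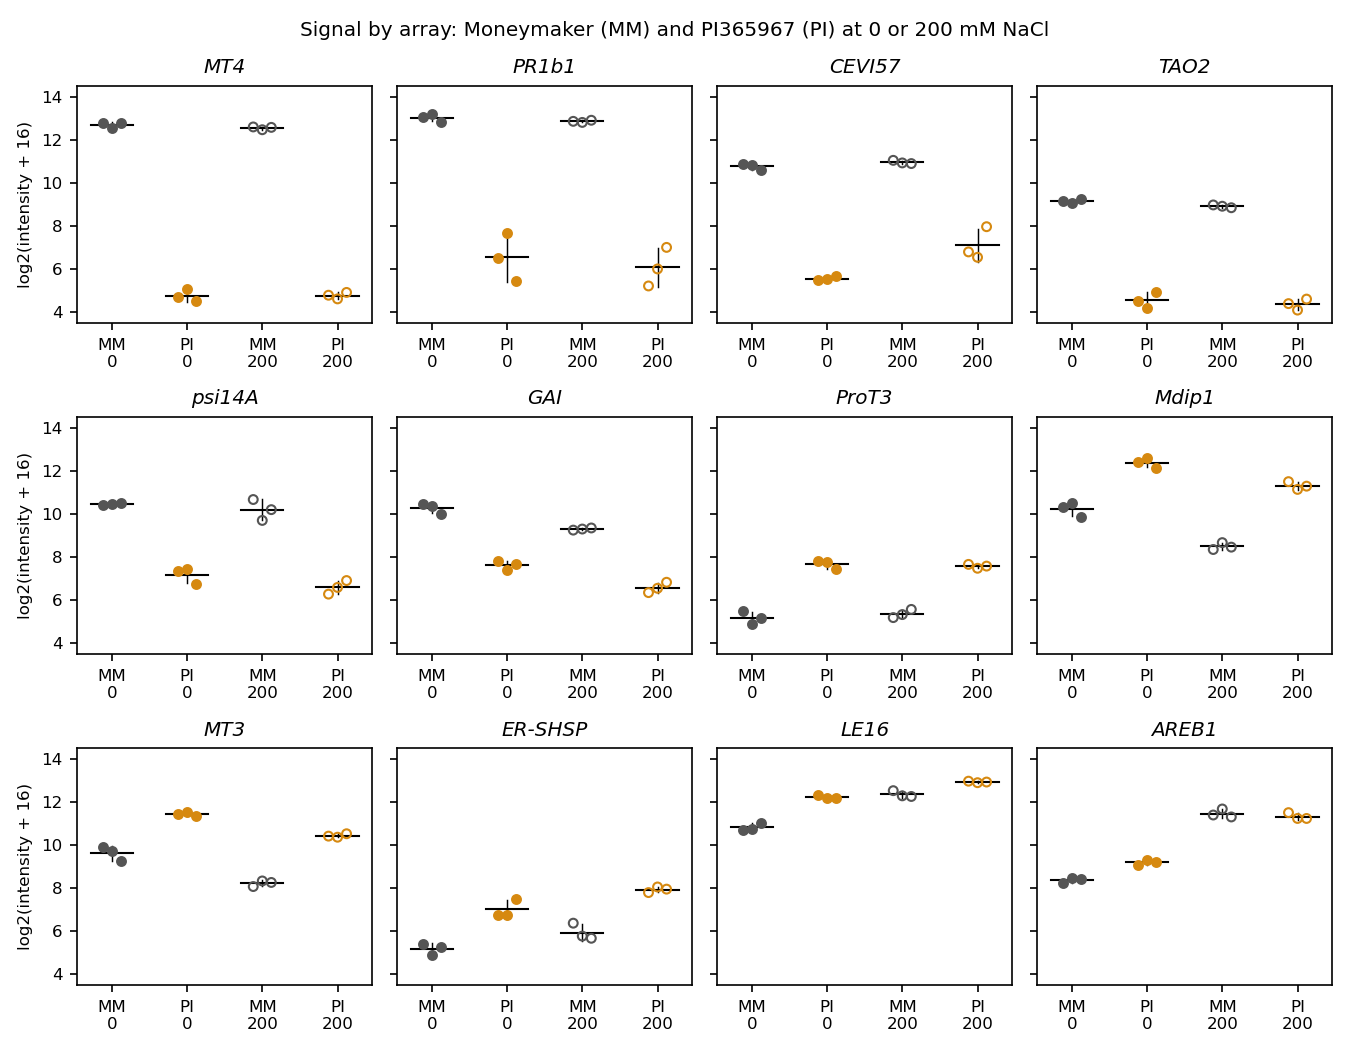
Level of 12 genes on every array, log2(intensity + 16) on the y axis, for Moneymaker (MM, grey) and PI365967 (PI, orange) at 0 mM (filled points) and 200 mM NaCl (open points); horizontal bars are means and vertical bars SD over 3 arrays. The unstressed arrays of the genotypes do not overlap for any of the 12 genes, and the gap persists under salt for all but AREB1, where both genotypes reach means of 11.45 and 11.32.

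Metallothioneins, small cysteine-rich proteins that bind metal ions and scavenge active oxygen, included the largest difference among the genes named here. One of the 4 probe sets assigned to MT4 stood at 12.76, 12.56 and 12.77 in Moneymaker and at 4.70, 5.08 and 4.54 in PI365967, where it was at background on all 3 arrays. That is at least 158-fold lower (measured −7.92 ± 0.13, adjusted p = 8.75e-12, and −5.08 in the authors' second values). The other 3 MT4 probe sets gave −2.67, −0.70 and 0.06, the last not called at 13.33 and 13.40. Of these 4, 3 have identifiers that mark probes shared with related transcripts, so a signal at background at 1 probe set stood beside a difference of 0.06 at another. MT3 went the other way, at 11.44, 11.51 and 11.33 in PI365967 against 9.90, 9.72 and 9.24 in Moneymaker (3.51-fold higher, 1.81 ± 0.14, adjusted p = 3.44e-06).

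Antioxidant genes and metallothioneins together had 10 higher, 4 lower and 19 not called of 33 probe sets, with a median of 0.10, and 3 of the 4 lower ones were MT4 probe sets. APX, an ascorbate peroxidase that removes hydrogen peroxide, stood at 8.48, 8.89 and 9.09 in PI365967 and 7.30, 7.22 and 7.34 in Moneymaker (1.53 ± 0.19). In the authors' second values its difference was 0.26 and not called. The iron superoxide dismutase gene FESOD was higher on 1 probe set, at 7.94, 8.41 and 7.68 against 7.02, 6.55 and 6.88 (1.19 ± 0.19), and gave −0.01 on the other. Without normalization 3 of the 33 were higher and 3 lower.

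Heat shock proteins are chaperones that keep other proteins from clumping. Of 8 probe sets 4 were higher in unstressed PI365967, 1 lower and 3 not called, with a median of 0.70. ER-SHSP, the form of the endoplasmic reticulum, stood at 6.76, 6.76 and 7.50 against 5.40, 4.87 and 5.25 in Moneymaker, where 1 of 3 arrays passed the background line. It was at least 3.06-fold higher, with Moneymaker arrays below the line set to it (measured 1.83 ± 0.23, adjusted p = 0.000109). The gene vis1, known from fruit, stood at 6.40, 7.20 and 7.05 against 5.44, 4.97 and 4.98 (at least 2.79-fold, measured 1.75 ± 0.25), again with 1 Moneymaker array above the line, and gave 3.01 in the second values. MTSHP, the mitochondrial form, was at 8.29, 8.25 and 8.71 against 7.50, 7.20 and 7.06 (1.17 ± 0.21). The plastid form HSP21 gave 0.68, a call not made without normalization (0.49), where 3 members were higher. In the second values HSP21 gave 2.33.

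Abscisic acid (ABA) is the hormone of water shortage, made from carotenoids in several steps. Of 6 probe sets of its synthesis 3 were higher and 2 lower. TAO2, an aldehyde oxidase gene of the family that carries out the last step, had levels of 9.16, 9.09 and 9.25 in Moneymaker and 4.50, 4.20 and 4.95 in PI365967, all at background, and so was at least 13.7-fold lower (measured −4.62 ± 0.17, adjusted p = 6.02e-09). Its relative TAO3 gave 0.69 ± 0.13 and the zeaxanthin epoxidase gene ZEP, of an early step, 0.68 ± 0.12. Neither call was made without normalization (0.39 and 0.44). NCED1, the enzyme gene that commits carotenoids to ABA, stood at 8.25, 8.55 and 7.67 against 8.73, 8.88 and 8.98 (−0.71 ± 0.18), and was not called in the authors' second values (−0.23) or with the 6 unstressed arrays alone and the replicate number as a block (adjusted p = 0.0612).

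Dehydrins and lipid transfer proteins are made in response to ABA and water shortage. Of 5 such water-stress proteins 3 were higher and none lower (median 0.31). LE16, a lipid transfer protein gene, stood at 12.30, 12.20 and 12.20 in PI365967 and 10.68, 10.74 and 11.03 in Moneymaker (2.67-fold, 1.42 ± 0.10, adjusted p = 1.57e-06). The dehydrin gene TAS14 was at 12.36, 12.78 and 12.30 against 12.11, 11.76 and 12.11 (0.49 ± 0.13), and its call ended without replicate 2 of Moneymaker (0.37) and in the blocked fit of the 6 arrays (adjusted p = 0.118). The second values gave 0.31 for TAS14. TSW12, another lipid transfer protein gene, gave 0.31. Without normalization LE16 alone of the 3 kept its call.

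Among 15 WRKY, NAC, bZIP and DREB stress transcription factors 3 were higher, 2 lower and 10 not called (median −0.17). AREB1, a bZIP factor of ABA response, stood at 9.08, 9.28 and 9.21 against 8.24, 8.47 and 8.42 (1.76-fold, 0.81 ± 0.12). The NAC gene JA2 gave 0.59 ± 0.15 and the bZIP gene abz1 0.57 ± 0.14, while DREB3 gave −0.51. None of the 3 higher factors was called without normalization, where they gave 0.50 for AREB1, 0.34 for JA2 and 0.25 for abz1.

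Genes for osmolytes and their transport differed strongly at single members. Of 10 compatible solute probe sets 2 were higher and 3 lower (median −0.10). ProT3, a proline transporter gene, had the largest measured higher difference among the genes chosen by the naming rule. It stood at 7.82, 7.75 and 7.44 in PI365967 and 5.48, 4.89 and 5.16 in Moneymaker, where 1 of 3 arrays passed the background line. It was at least 4.76-fold higher, with Moneymaker arrays below the line set to it (measured 2.49 ± 0.15, adjusted p = 4.18e-07). Its relative ProT2 was lower, at 7.68, 7.81 and 7.37 against 8.68, 8.81 and 8.67 (−1.10 ± 0.15). GolS-1, galactinol synthase of the raffinose sugars, was at 6.62, 7.47 and 6.12 against 5.61, 5.91 and 5.51 (1.06 ± 0.27, and 1.79 in the authors' second values), and IMP1, an inositol monophosphatase gene, gave −0.58. Of 6 polyamine probe sets, 4 of them for the arginine decarboxylase gene adc1, 4 were higher and none lower (median 0.33). The adc1 probe set with the largest difference gave 0.45, and others gave 0.36 and 0.29, both called. Another adc1 probe set went the other way, at −0.43, and was not called (limma adjusted p = 0.0518). The ornithine decarboxylase gene ODC gave 0.43, and its call ended without any 1 of 4 arrays (0.34 to 0.41) and in the blocked fit of the 6 arrays (adjusted p = 0.0655). Without normalization none of the polyamine probe sets was higher and 1 was lower.

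Ion transporters take up potassium and keep sodium out of the cytoplasm. Of 7 probe sets 2 were higher, 1 lower and 4 not called (median −0.05). LKT1, an inward potassium channel gene of the root, stood at 8.79, 8.43 and 8.44 in PI365967 and 7.57, 7.31 and 7.55 in Moneymaker (2.11-fold, 1.08 ± 0.13, adjusted p = 9.70e-05). The 2 sodium/proton exchanger genes gave −0.16 (NHX1) and −0.05 (NHX2), neither called. SOS2, the kinase gene that activates sodium export, gave 0.28, lost without any 1 of 4 arrays (0.23 to 0.28), at −0.04 without normalization and at 0.12, not called, in the authors' second values. The proton pump gene LHA2 gave −0.22, lost without any 1 of 3 arrays (−0.22 to −0.19). In the blocked fit of the 6 unstressed arrays neither SOS2 (adjusted p = 0.0725) nor LHA2 (adjusted p = 0.0720) was called. Neither of 2 aquaporin probe sets was called, and their median was 0.16.

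**Figure D4:**
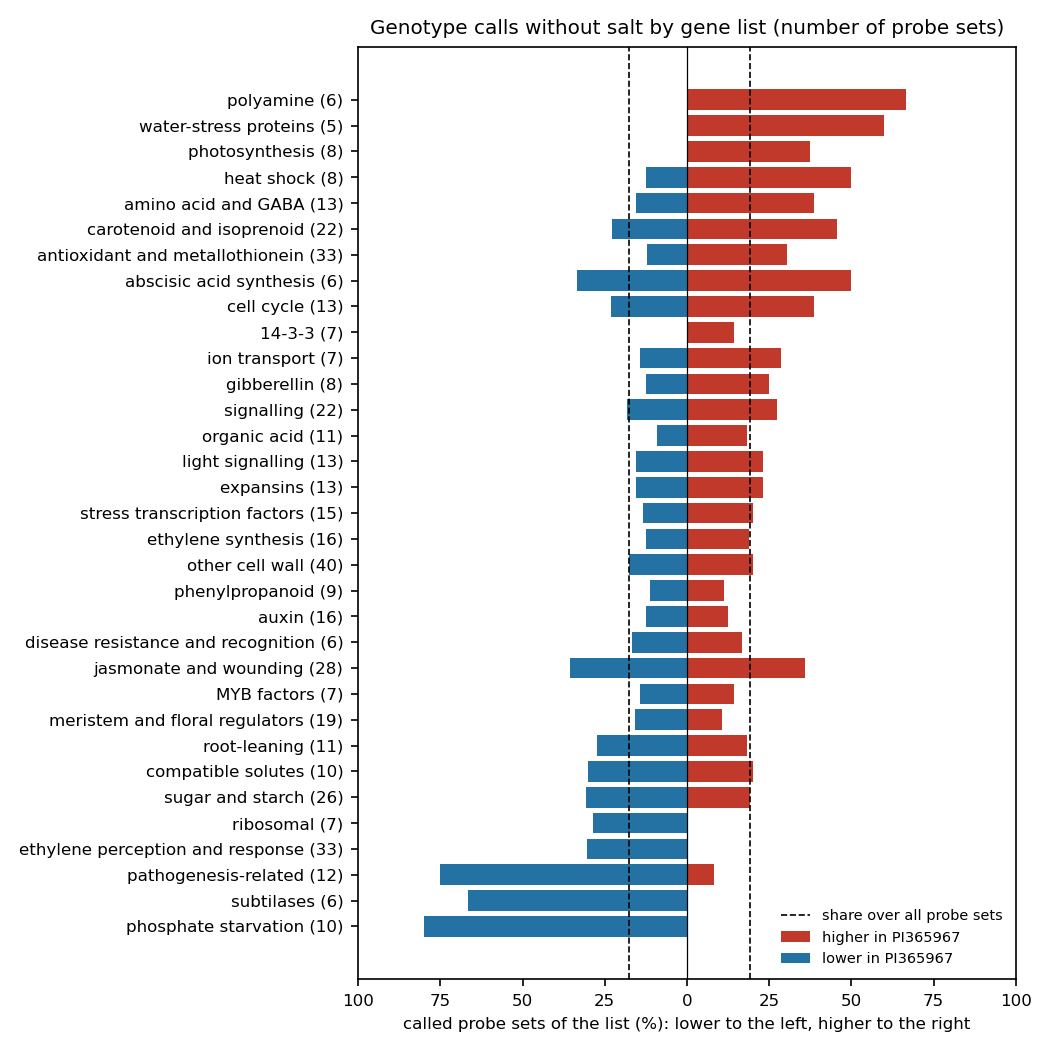
Share of the probe sets of each gene list called lower (blue, to the left) and higher (red, to the right) in unstressed PI365967, in percent, for the 33 lists with at least 5 probe sets (number in brackets); dashed lines mark the shares over all probe sets, 17.7% lower and 19.2% higher. Phosphate starvation, subtilases and pathogenesis-related genes lie at the lower end, and polyamine, water-stress and heat shock genes at the higher end, where without normalization between arrays 0, 1 and 3 members were called higher. The phosphate starvation and subtilase lists were not among those planned.

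Ethylene synthesis had 3 higher and 2 lower of 16 probe sets (median 0.09). ACC synthase and ACC oxidase make this gaseous hormone of stress and ripening, and their genes differed in both directions. The ACC oxidase gene ACO4 stood at 11.41, 11.25 and 11.25 in PI365967 and 12.60, 12.66 and 12.21 in Moneymaker (−1.19 ± 0.13). Of the ACC synthase genes, ACS2 was lower, at 5.65, 5.59 and 5.91 against 6.78, 7.22 and 6.44 (−1.10 ± 0.18). ACS3 was higher, at 6.60, 7.03 and 7.15 against 5.89, 6.11 and 5.78 (1.00 ± 0.13). The ACO6 probe set with the largest difference gave 0.40, lost without either of 2 arrays (0.33 to 0.37). The authors' second values gave −0.53 for ACO4, −0.64 for ACS2 and, not called, 0.19 for ACO6.

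Ethylene perception and response, from receptors to target factors, had 10 lower, none higher and 23 not called of 33 probe sets (median −0.14). That is 30.3% lower, against 17.7% over all probe sets and 22.1% over those with a gene name. EREB, an ethylene-response factor gene, stood at 5.59, 6.01 and 5.30 against 6.86, 6.77 and 6.65 in Moneymaker (−1.13 ± 0.18), with 1 PI365967 array at background. The receptor gene ETR6 gave −0.77 ± 0.12 and EIL3, a factor gene that acts in the nucleus at the end of the signal, −0.70 ± 0.09 (−0.33 in the authors' second values). ERF-H1 gave −0.65, lost without replicate 2 of PI365967 (−0.55). With median centring 2 members were higher beside 10 lower, without normalization 7 were lower and none higher, and in the authors' second values 3 were higher and 14 lower.

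Gibberellin promotes growth by removing DELLA proteins, and GAI, the DELLA repressor gene, stood at 7.80, 7.38 and 7.66 in PI365967 and 10.48, 10.36 and 10.01 in Moneymaker (6.37-fold lower, −2.67 ± 0.15, adjusted p = 2.03e-07). 20ox-3, a gibberellin 20-oxidase gene of hormone synthesis, was higher, at 6.56, 6.55 and 6.78 against 5.45, 5.59 and 5.06, the last below the line (at least 2.23-fold, measured 1.27 ± 0.19). In all, 2 of 8 gibberellin probe sets were higher and 1 lower (median −0.07), the other higher one being CPS, at background in both genotypes and not called with the replicate number as a block (adjusted p = 0.0639 over the 6 arrays).

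Of 16 auxin probe sets 2 were higher and 2 lower (median −0.04), and both lower ones belong to ARF3, an auxin response factor gene. Its probe sets stood at 8.36, 8.38 and 8.28 against 5.49, 5.56 and 5.37 (−2.87 ± 0.10, adjusted p = 3.82e-09), and at 7.90, 7.90 and 7.94 against 5.96, 5.67 and 5.62 (−2.16 ± 0.16). The former probe set had 1 PI365967 array at background and the others just above the line. In the authors' second values the difference of that probe set was −0.998. IAA2, an auxin-induced repressor gene, gave 0.67 on the called probe set and −0.80 on the other, which was not called. IAA3, of the same kind, gave 0.56, lost without any 1 of 4 arrays (0.42 to 0.56) and in the blocked fit of the 6 arrays (adjusted p = 0.0720).

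Photosynthesis genes had 3 of 8 higher and none lower (median 0.17). The count depended on the scaling: 7 were higher with median centring, 5 in the authors' second values and 1 without normalization. CAB5, a chlorophyll-binding protein gene, stood at 13.14, 13.04 and 13.07 against 12.15, 11.84 and 12.49 (0.92 ± 0.17). The plastocyanin gene PETE gave 0.51, not called without normalization (0.37), and PsbQ 0.28, lost without any 1 of 3 arrays (0.20 to 0.29) and in the blocked fit of the 6 arrays (adjusted p = 0.0778). The summed level of this list, given above, was the higher in PI365967.

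The carotenoid and isoprenoid pathway makes the pigments that protect chlorophyll, and the precursors of ABA. Of 22 probe sets 10 were higher, 5 lower and 7 not called (median 0.28). Psy1, the phytoene synthase gene of fruit, stood at 7.73, 7.88 and 7.64 in PI365967 and 10.30, 10.28 and 10.08 in Moneymaker (5.54-fold lower, −2.47 ± 0.14, adjusted p = 2.45e-07). Another Psy1 probe set gave −0.59, and the last, at background in both genotypes, −0.03. NSY, neoxanthin synthase, was lower in PI365967, at 6.60, 6.04 and 6.43 against 7.36, 7.22 and 7.49 (adjusted p = 0.000162). The phytoene desaturase gene PDS was higher (0.75 ± 0.08), as was VDE, violaxanthin de-epoxidase (0.76 ± 0.14). Without normalization none of the 22 was higher and 5 were lower, with 0.47 for PDS and 0.43 for VDE. The authors' second values gave 0.41 for PDS.

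Carbon and nitrogen genes differed in both directions. Sugar and starch metabolism had 5 higher and 8 lower of 26 probe sets (median −0.14). CIF1, an invertase inhibitor gene, stood at 9.72, 9.90 and 9.41 against 11.32, 11.44 and 11.36 (−1.70 ± 0.14), but gave −0.18, not called, in the authors' second values. The hexose transporter gene HT2 gave −0.92 ± 0.13, and AI gave −0.77. Organic acid metabolism had 2 higher and 1 lower of 11 (median −0.04). The lower one was PPCK1, a kinase gene that activates phosphoenolpyruvate carboxylase, at 7.56, 7.35 and 6.95 against 9.47, 9.19 and 9.53 (4.32-fold, −2.11 ± 0.17). The malate dehydrogenase genes chMDH (0.96) and cMDH (0.67) were higher, and neither was called without normalization (0.63 and 0.38).

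Amino acid and GABA genes had 5 higher and 2 lower of 13 (median 0.15). The glutamate dehydrogenase gene gdh1 was closely grouped, at 12.54, 12.59 and 12.46 against 11.44, 11.49 and 11.36 (2.15-fold higher, adjusted p = 7.75e-07). GABA-TP1, a GABA transaminase gene, gave −0.94 ± 0.14. The amino acid permease gene AAP3 was at background in all 3 Moneymaker arrays and at least 1.46-fold higher in PI365967.

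Cell wall genes were near the background share. Expansins, which loosen walls in growth, had 3 of 13 higher and 2 lower (median −0.11). EXPA6 gave 0.90 on the called of its probe sets and exp11 0.69, not called without normalization (0.60 and 0.47). EXPA8 (0.56) lost its call without any 1 of 5 arrays (0.37 to 0.62) and with the replicate number as a block (adjusted p = 0.0850 over the 6 arrays), and exp9 (−0.36) without any 1 of 4 (−0.38 to −0.31). Of 40 other cell wall probe sets 8 were higher and 7 lower (median −0.05). The endoglucanase gene cel5 stood at 7.03, 7.43 and 7.67 against 8.90, 9.05 and 8.48 (−1.44 ± 0.18). TBG4, a beta-galactosidase gene, was at 9.71, 9.77 and 9.60 against 8.79, 8.75 and 8.08 (1.15 ± 0.19). GP1 gave −1.01, and ext1, at background in PI365967, was at least 1.71-fold lower.

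Cell cycle genes had 5 higher and 3 lower of 13 (median 0.21). Both krp genes, inhibitors of cyclin-dependent kinases, were lower, with krp1 at 7.27, 7.33 and 7.39 against 8.43, 8.38 and 8.37 (−1.07 ± 0.08, adjusted p = 1.37e-06) and krp2 at −0.75 ± 0.09. The mitotic kinase gene CDKB1 (0.69) and the cyclin gene CycA2 (0.66) were higher, and neither was called without normalization (0.36 and 0.34), where no member was higher. Ribosomal protein genes had 2 of 7 lower and none higher (median −0.09): rpl38 stood at 10.68, 10.83 and 10.66 against 11.89, 11.75 and 11.91 (−1.13 ± 0.08, and −0.22 in the authors' second values), and RPL37 gave −0.32, not called without normalization (−0.49) or with median centring (−0.20).

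Signalling genes had 6 higher and 4 lower of 22 (median −0.04). MKK4, a MAP kinase kinase gene, stood at 10.20, 10.25 and 10.18 against 11.14, 11.24 and 11.34 (−1.03 ± 0.10). Of the SnRK1 energy-sensing kinase, the subunit gene SNF4 was at background in Moneymaker and at least 1.15-fold higher (2.16 in log2 in the authors' second values), and GAL83 gave 0.56, not called without normalization (0.27). PLDa2, a phospholipase D gene, gave −0.50, lost without replicate 1 of Moneymaker (−0.42).

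Genes of nutrient uptake and peroxidases typical of roots had 2 higher and 3 lower of 11 (median −0.25). The peroxidase gene TPX2 stood at 9.57, 9.23 and 9.27 against 10.02, 10.20 and 10.20 (−0.79 ± 0.18, and −0.41 in the authors' second values), and FRO1, the root iron reductase gene, gave −0.69 ± 0.15. FER, the regulator gene of iron uptake, gave 0.51 and the ammonium transporter gene AMT1-2 0.49, neither called without normalization (0.27 and 0.28).

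Several genes with large differences fell in no list. Mdip1 stood at 12.41, 12.60 and 12.15 in PI365967 and 10.32, 10.49 and 9.86 in Moneymaker (4.48-fold higher, 2.16 ± 0.17, adjusted p = 3.13e-06). BR1 was at 9.10, 8.99 and 9.73 against 7.23, 7.33 and 7.62 (1.88 ± 0.23). On the lower side pip1 was at 7.60, 8.24 and 7.37 against 11.45, 11.22 and 10.74 (10.6-fold, −3.40 ± 0.35). The arrays did not overlap for any of these. Further higher genes were gtsatom (1.64, and 0.43 on its other probe set), Dif54 (1.45, and 0.74 in the authors' second values) and ST1 (1.39). A probe set annotated PRO1, but not the one listed with the solutes, gave 1.54. The lysyl-tRNA synthetase gene LysRS (1.25) was at 9.60, 9.74 and 9.47 against 8.40, 8.79 and 7.86.

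The same genotype difference was then measured in the 6 salt-treated arrays, which hold other plants and share no array with the unstressed ones. Both differences came from the same fit and used the same variance estimate for each probe set. The recurrence of calls given here is therefore not independent evidence, since a variance estimated too low favours a call in both. Under salt 4961 probe sets (49.1%) were called, 2686 (26.6%) higher and 2275 (22.5%) lower. Of the 3718 called without salt, 1353 were higher and 1231 lower in both, 69.5% together, and 122 were called in opposite directions. Large differences recurred more fully: of those of at least 4-fold without salt, 46 of 49 higher and 112 of 114 lower probe sets had the same call under salt. Across the 10101 probe sets, which are not independent and share the normalization, Pearson's r between the differences without and under salt was 0.774, and Spearman's rho was 0.634.

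Among the named genes, MT4 gave −7.78 under salt, PR1b1 −6.78, TAO2 −4.54, psi14B −5.62, pip1 −3.70 and GAI −2.73. ProT3 gave 2.21, Mdip1 2.82, MT3 2.21 and ER-SHSP 1.99. Each of these lay within 1 log2 unit of its value without salt, but other large differences moved further. CEVI57 gave −3.85 under salt against −5.20 without, PPCK1 −1.10 against −2.11 and the named gtsatom probe set 0.22 against 1.64.

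**Figure D5:**
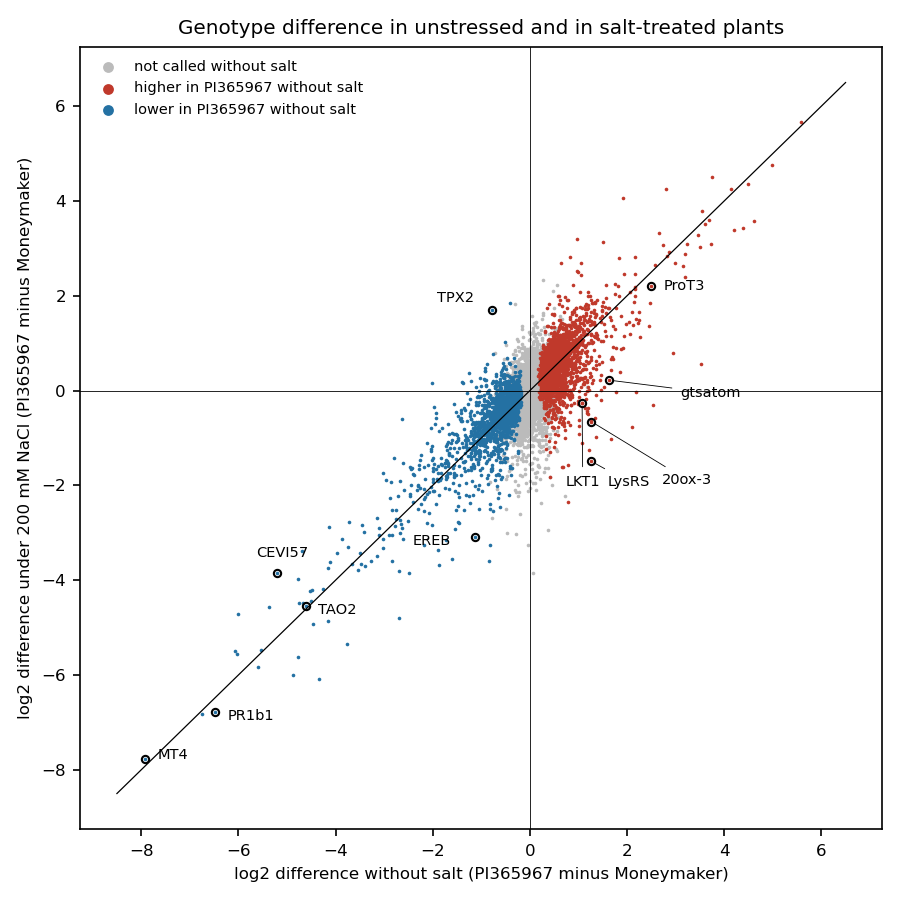
Genotype difference (PI365967 minus Moneymaker, log2) without salt (x axis) and under 200 mM NaCl (y axis) for every probe set, grey where not called without salt, red where called higher and blue where called lower; the diagonal marks equal differences. MT4, PR1b1, TAO2 and ProT3 lie close to the diagonal, while LysRS, at 1.25 and −1.48, and TPX2, at −0.79 and 1.70, lie on opposite sides of 0.

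Whether a genotype difference itself differed between treatments was tested by the interaction term, which uses the same unstressed arrays as well as the salt arrays. It was called for 1337 probe sets (13.2%), 621 (6.15%) with a higher and 716 (7.09%) with a lower PI365967 value under salt relative to that without. Of these, 681 were also called without salt. LysRS moved by −2.73 ± 0.31 (adjusted p = 0.000368), with salt levels of 11.49, 11.77 and 11.10 in Moneymaker and 10.04, 9.81 and 10.08 in PI365967. TPX2 moved by 2.49 ± 0.26 (adjusted p = 0.000268), at 7.13, 7.08 and 7.34 in Moneymaker and 8.42, 9.29 and 8.95 in PI365967 under salt. For both genes the higher genotype changed places.

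AREB1, JA2 and LE16, all higher in unstressed PI365967, had negative interactions. AREB1 reached 11.39, 11.67 and 11.30 in Moneymaker and 11.50, 11.23 and 11.23 in PI365967, a difference of −0.13 that was not called and an interaction of −0.95 ± 0.17 (adjusted p = 0.00429). JA2 had an interaction of −0.84 ± 0.21. LE16 kept a called difference of 0.57 under salt, less by 0.85 than without it (interaction −0.85 ± 0.14). LKT1 stood at 8.59, 8.17 and 8.18 against 8.02, 8.10 and 8.05 in PI365967, a difference of −0.26 that was not called, with an interaction of −1.33 ± 0.19. gtsatom, 3.11-fold higher without salt on the probe set named here, gave 0.22 under salt, not called (interaction −1.42 ± 0.12). Its other probe set gave 0.43 without salt and −0.65 under salt, both called (interaction −1.08 ± 0.20). EREB, already lower in PI365967 without salt, gave −3.09 under salt (interaction −1.96 ± 0.25).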

How the data were processed

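Total RNA of whole plants was hybridised to an Affymetrix tomato array. The authors' deposited matrix holds linear intensity values. How the background was corrected and probes were summarised is not given in the sources used here. Array medians ran from 332.8 to 633.2, so the values had not been brought to a common median. Whether they were scaled in another way is not known. The authors also deposited log2 values of the same arrays for 8085 probe sets, with the method not given, and these served as an alternative.

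Intensities became log2(value + 16), quantile normalized over 12 arrays. The 108 control probe sets were left out, and 10101 were tested with limma 3.58.1 in R 4.3.3 (lmFit, contrasts.fit and eBayes, two-sided, Benjamini-Hochberg adjusted p under 0.05, 8 residual and 3.11 prior degrees of freedom), as a mean per group over all 12 arrays. The median SE was 0.114, its size limited by the number of arrays. The procedure was tested on simulated data with far fewer shifted probe sets than were called here and no scaling difference between arrays. That test therefore cannot show how the calls depend on normalization. Genes were named by a rule: the 15 largest called differences each way with non-overlapping arrays and a higher mean above the 25th percentile, and up to 4 called members per list. The 34 lists hold symbols, since the annotation gives no descriptions. Members and lists were chosen with earlier results of these data known. The phosphate starvation and subtilase lists were not among those planned, and a planned terpenoid and trichome list was not used. The background line, the highest level of 17 control probe sets, and its bounds were chosen after seeing the data. No sequence is shown because the probe sequences were not used here.

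Replicate numbers were checked as pairs. The deviations of same-numbered unstressed arrays correlated at 0.116, 0.129 and 0.162, and those of differently numbered ones at −0.127 to 0.007. For salt arrays the values were −0.040 to 0.064 with the same number and −0.137 to 0.108 with different numbers. The numbers were treated as possible pairs of the unstressed arrays, from the data and not from the labels. The main fit does not use them. Alternatives were other or no normalization, pseudocounts of 1 and 64, a filter on dim probe sets, leaving out probe sets open to related transcripts, another prior, the replicate block, each array left out, 6 arrays alone and the authors' second log2 values.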

Additional observations from a re-analysis of the deposited data

Results flagged for a closer look

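The genotype difference under salt differed from that without salt, by a called interaction term in limma, for 33 of the 120 genes named for the unstressed comparison. The values are the difference under salt minus that without salt (log2). All are differences of 4 group means, and 13.2% of all probe sets had such a call. Among the 3718 probe sets called without salt, from which these genes were chosen, 681 had it. Among the 702 with a gene name, 137 had it.

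It was negative for LysRS (−2.73), EREB (−1.96), 20ox-3 (−1.92, with both genotypes at background on every array under salt), gtsatom (−1.42), MTSHP (−1.35), LKT1 (−1.33), Asc-1 (−1.28), ACS3 (−1.21), THM16 (−1.11), DREB3 (−0.99), AREB1 (−0.95), LE16 (−0.85), JA2 (−0.84), gdh1 (−0.84), GAL83 (−0.55) and TSW12 (−0.34). Of these, EREB and DREB3 were lower in unstressed PI365967 and the other 14 were higher.

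It was positive for TPX2 (2.49), CEVI57 (1.35), AMT1-2 (1.09), rnalx (1.02), PPCK1 (1.01), Psy1 (0.86), PETE (0.83), AUREA (0.83), MYB (0.80), ProT2 (0.80), IMP1 (0.72), hqt (0.65), AI (0.61), ARF3 (0.60), KN1 (0.56), CCR1 (0.46) and LHA2 (0.42). AMT1-2, PETE and CCR1 were higher in unstressed PI365967 and the other 14 lower. The genes were chosen for their unstressed difference, which enters both sides of this contrast.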

How the results depend on the processing

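Scaling mattered most. Without normalization between arrays 1585 probe sets were called without salt, 297 higher (18.7% of calls, against 52.0%) and 1288 lower, the median of all probe sets moved to −0.22, 1496 of the 3718 calls were kept and 137 changed sign. Under salt that setting gave 2020 calls (1054 higher, 966 lower), and for the interaction 292 (176 and 116). With median centring 58.2% of the calls without salt were higher, and the interaction had 413 higher. In the authors' second log2 values, an alternative chosen after seeing the data, 2504 interactions were called (1372 higher, 1132 lower), and 2934 of 3405 calls without salt were kept, with 123 of opposite sign. Leaving out each array gave 3078 to 3535 calls without salt (1580 to 1818 higher, 1490 to 1717 lower), 4365 to 4679 under salt (2348 to 2549 and 2016 to 2130) and 929 to 1376 interactions (380 to 666 and 536 to 747). The lowest interaction counts of higher probe sets, 380 and 413, came without replicate 1 of unstressed Moneymaker and without replicate 2 of salt-treated PI365967. The causes were not tested.

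With the replicate number as a block 3660 were called without salt, 4888 under salt and 1199 for the interaction, and among named genes EXPA8 and CPS lost their calls and no other did. That fit also blocks the salt arrays, whose numbers showed no pairing. With the 6 unstressed arrays alone and the block 3403 were called without salt, and 9 named genes lost their calls: TAS14, NCED1, SOS2, LHA2, ODC, EXPA8, CPS, IAA3 and PsbQ. Of the 120 named genes, 41 lost their call without normalization, 36 of them higher ones, and 103 held it without any single array. SOS2 changed sign without normalization (−0.042) and P69A in the authors' second values (0.17), where the difference of 27 named genes moved by over 1.5 times. Folds of genes at background on every array of a genotype are bounds, as are those of ProT3, ER-SHSP, vis1 and 20ox-3, whose Moneymaker means lay below the line.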

Other observations

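Other regulators differed at single members. Of 19 meristem and floral regulator probe sets 2 were higher and 3 lower in unstressed PI365967 (median 0.05): the MADS-box genes TDR4 (−0.85 ± 0.14) and TDR6 (−0.59) and the homeobox gene KN1 (−0.45) were lower, and T12 (0.43) was higher, though not called without normalization between arrays (0.17) and at 0.25 in the authors' second log2 values. Of 13 light signalling probe sets 3 were higher and 2 lower (median −0.11). The blue-light receptor genes CRY1A (0.53) and CRY2 (−0.44) differed in opposite directions, CRY1A being called on both of its probe sets and not without normalization (0.22). Cry1b (0.31) and AUREA (−0.55), the chromophore gene of phytochrome, lost their calls without any 1 of 3 arrays (0.26 to 0.29) and without replicate 1 of PI365967 (−0.40). Of 9 phenylpropanoid probe sets hqt (−0.61), of chlorogenic acid synthesis, was lower (−0.16 in the second values) and CCR1 (0.38), of lignin synthesis, higher, the latter not called without normalization (0.07) (median 0.06). Of 7 MYB factors MYB (−0.54) was lower and THM16 (0.52) higher, a call lost without any 1 of 4 arrays (0.38 to 0.54; median −0.05) and not made in the second values (0.32). Of 7 probe sets of 14-3-3 proteins TFT6 (0.27) was higher, but not called without normalization (0.05) or in the second values (0.18; median −0.08).

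Probe sets of 1 gene often disagreed. Of 57 genes with several probe sets, 7 had all called in 1 direction, 21 had none called and 29 had some called and some not. The median range of the difference within a gene was 0.36, and it reached 1 log2 unit in 9 genes. BMY3, a beta-amylase gene, was the 1 gene with calls in opposite directions (0.33 and −0.48).

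Among probe sets without a gene name, the 2 largest differences each way were these. Les.1207.1.A1_s_at stood at 12.59, 12.57 and 12.45 in Moneymaker and 5.97, 6.04 and 5.37 in PI365967, and Les.4809.1.S1_at at 10.32, 10.47 and 10.32 against 4.21, 4.23 and 4.46. In the other direction Les.1842.1.S1_at stood at 4.08, 4.09 and 4.06 in Moneymaker and 9.76, 9.70 and 9.50 in PI365967, at least 19.2-fold higher. Les.5230.1.S1_at stood at 4.48, 4.51 and 4.99 against 9.72, 9.64 and 9.60, also at least 19.2-fold higher. All 4 had the same pattern under salt.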
